A study of Mus musculus with 14 samples.

Results

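The genes Ly6c2, Csf1r, Irf8, F13a1, Ms4a6c, Klf4, Siglech, Itgax and Zbtb46, which mark monocytes and dendritic cells, were followed by RNAseq in bone marrow of mice with intact or deleted Pnpla2 in their marrow adipocytes, fed freely or on a restricted diet. These 9 members were taken by symbol, and all were found among the 55401 genes counted. RNA came from marrow plugs of distal tibiae, a site rich in bone marrow adipose tissue, of 24-week-old male mice of a mixed SJL and C57BL/6J background, and each of the 14 samples pooled the plugs of a pair of animals. BMAd-Pnpla2+/+ mice served as controls, with 4 samples fed ad libitum (AL) and 4 after caloric restriction (CR), a 30% cut of food intake for 6 weeks. BMAd-Pnpla2-/- mice carry floxed alleles of Pnpla2, the gene of adipose triglyceride lipase, and gave 3 AL and 3 CR samples. Mice of both genotypes, controls included, carry Osterix-FLPo and a FLPo-activated Cre in the Adipoq locus, so that Cre is made only where both Osterix and Adipoq have been active. This Cre lowers circulating adiponectin, is inefficient in young mice, and also labelled a minority of marrow cells described as stromal or dendritic. The comparisons ask how CR changed the monocyte and dendritic cell genes in each genotype, how the genotypes differed on each diet, and whether the responses to CR differed.

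Monocytes and dendritic cells arise in the marrow from shared myeloid progenitors. The receptor of colony-stimulating factor 1, encoded by Csf1r, carries the main survival signal of monocytes and macrophages, and the transcription factors encoded by Irf8 and Klf4 drive progenitors towards monocytes. Classical monocytes are known by the surface protein Ly6C, of which Ly6c2 is the gene, and also make the factor XIII A subunit (F13a1) and the membrane-spanning protein of Ms4a6c. Irf8 is needed for dendritic cells as well, among which Siglech marks the plasmacytoid kind, Itgax encodes CD11c, and Zbtb46 is a transcription factor of the conventional kind. In whole marrow, fewer cells of a type and less RNA per cell cannot be told apart.

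Between 18898324 and 21665553 read pairs were counted on genes per sample without regard to strand, and 17671 genes passed the filter on low counts. All 9 members did. The first strand held 4.30 to 4.62% of strand-assigned gene counts in 11 samples but 50.1 to 50.5% in the 3 BMAd-Pnpla2-/- CR samples, so that in this group a library without strand information and the condition cannot be told apart. Unstranded counts were therefore compared. Levels are given as CPM, the count relative to the TMM-scaled library size. A gene is said to have changed where the adjusted p (padj) of edgeR's quasi-likelihood test over all genes was under 0.05. Haemoglobin transcripts took 0.964% and 0.979% of the counts in BMAd-Pnpla2+/+ CR replicates 2 and 3, and 1.49 to 4.61% in the other 12 samples. The targeted gene, Pnpla2, was at 174 to 301 CPM in BMAd-Pnpla2+/+ AL, 502 to 1015 in BMAd-Pnpla2+/+ CR, 131 to 170 in BMAd-Pnpla2-/- AL and 177 to 267 in BMAd-Pnpla2-/- CR samples. It was lower in BMAd-Pnpla2-/- than in BMAd-Pnpla2+/+ mice under CR by a log2 fold change of -1.90 (SE 0.26, padj = 0.0387). Between the genotypes fed AL, the Pnpla2 difference of -0.57 (SE 0.25, padj = 0.9996) did not pass. The labels do not say whether samples came from separate cohorts, so p-values measure the spread between these pooled samples.

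Ly6c2 lies on the reverse strand of chromosome 15 (75108158 to 75111970, mm10) beside a close copy, Ly6c1, which endothelial cells express. Both sequences are shown because reads of one gene can resemble the other. The coding sequences of Ly6c2-201 and Ly6c1-201 in GENCODE M21 are 393 bases each and differ at 9, and 15.8% of the 723 windows of 100 bases in the Ly6c2 transcript of 822 bases occur without a mismatch in Ly6c1. A read pair that fits both genes equally is counted on neither. In the first 90 coding bases, which span the first 2 coding exons (chr15:75111598-75111667 and chr15:75110608-75110627 for Ly6c2, chr15:75048442-75048511 and chr15:75047450-75047469 for Ly6c1), capitals mark the 6 bases that differ:
Ly6c2: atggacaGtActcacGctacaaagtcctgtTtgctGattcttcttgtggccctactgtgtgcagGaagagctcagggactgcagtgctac
Ly6c1: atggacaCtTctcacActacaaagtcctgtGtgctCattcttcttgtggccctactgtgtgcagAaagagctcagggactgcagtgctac

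Promoters of 8 of the 9 members were found in the RefSeq set for GRCm38.p6, and Csf1r was not matched. The 250 bases before the start were searched on both strands for GAGGAAGT, a sequence bound by the myeloid factor PU.1 (reverse complement ACTTCCTC), and for TTCNNNGAA, the palindromic element of STAT factors. GAGGAAGT occurs in 2.44% of the 32851 promoters of that length and, among the members, in Ly6c2 alone. TTCNNNGAA occurs in 7.02% of promoters and, among the members, in Irf8 and Siglech. The composite element bound by PU.1 together with an IRF is in 2.3% of promoters and in none of the 8. A second RefSeq start of Ly6c2 has a further GAGGAAGT at 8 to 1 bases upstream of it. Of the members that fell with CR in BMAd-Pnpla2+/+ mice, Ly6c2 and Irf8 hold a match, and Ms4a6c and Itgax hold none. A link between matches and the response was not tested. The promoters of Ly6c2 and Irf8 are shown, Ly6c2 at chr15:75111972-75112221 on the reverse strand with GAGGAAGT in capitals and Irf8 at chr8:120736108-120736357 on the forward strand with both TTCNNNGAA matches in capitals:
Ly6c2 promoter: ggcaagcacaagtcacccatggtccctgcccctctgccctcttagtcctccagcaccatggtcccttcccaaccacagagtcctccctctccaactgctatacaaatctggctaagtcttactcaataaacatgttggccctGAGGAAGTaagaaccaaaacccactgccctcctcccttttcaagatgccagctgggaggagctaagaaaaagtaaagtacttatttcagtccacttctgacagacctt
Irf8 promoter: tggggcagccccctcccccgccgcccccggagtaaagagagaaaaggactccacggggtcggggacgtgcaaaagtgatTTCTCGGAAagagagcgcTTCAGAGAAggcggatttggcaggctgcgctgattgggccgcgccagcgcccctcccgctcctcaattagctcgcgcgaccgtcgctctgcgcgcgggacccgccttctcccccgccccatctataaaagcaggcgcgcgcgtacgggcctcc
A match is a description of these letters, and binding was not measured.

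The other members lie, in mm10, on chromosomes 8 (Irf8, 120736358 to 120756694, forward strand), 13 (F13a1, 36867178 to 37050244, reverse), 4 (Klf4, 55527143 to 55532466, reverse), 7 (Siglech, 55768178 to 55778925, and Itgax, 128129547 to 128150657, both forward) and 2 (Zbtb46, 181387762 to 181459426, reverse). Csf1r shares exon sequence with Hmgxb3 and F13a1 with the antisense gene Gm30489, both on the opposite strand. In the 11 samples with strand information, the ratio of the unstranded to the reverse-strand count was 0.966 to 0.982 for F13a1. For Csf1r it was 1 to 1.005, so that only F13a1 showed a small loss of reads.

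Per length of exon, Ly6c2 was the most abundant of the members in each group and Zbtb46 the least. In BMAd-Pnpla2+/+ AL samples Ly6c2 averaged 167 ± 15.95 CPM per kilobase (SD, n = 4), followed by Csf1r at 54.8 ± 14.6, F13a1 at 49.7 ± 5.88 and Irf8 at 38.2 ± 6.18. Every Ly6c2 value lay above every Csf1r value, whereas Csf1r, F13a1 and Irf8 overlapped with their neighbours in this order. Klf4 and Ms4a6c came next at 28.8 ± 6.95 and 28.7 ± 2.96 and in these counts did not differ beyond their spread. The unstranded count of Ms4a6c was only 49.7 to 63.3% of its reverse-strand count in the 11 samples with strand information. The Ms4a6c level is therefore understated, and its place in this order depends on the kind of count. The dendritic cell genes were lower, with Itgax at 9.41 ± 1.42, Siglech at 7.10 ± 3.26, which overlapped with Itgax, and Zbtb46 at 1.70 ± 0.20, below every Siglech sample. The order was kept in BMAd-Pnpla2-/- AL samples. Under CR, the Ly6c2 level per kilobase in BMAd-Pnpla2+/+ mice was 108 ± 21.3 and overlapped with that of Csf1r at 67.1 ± 19.6, whereas in BMAd-Pnpla2-/- mice it was 147 ± 10.7 and lay above every Csf1r sample, whose mean was 51.5 ± 2.93 (n = 3).

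**Figure D1:**
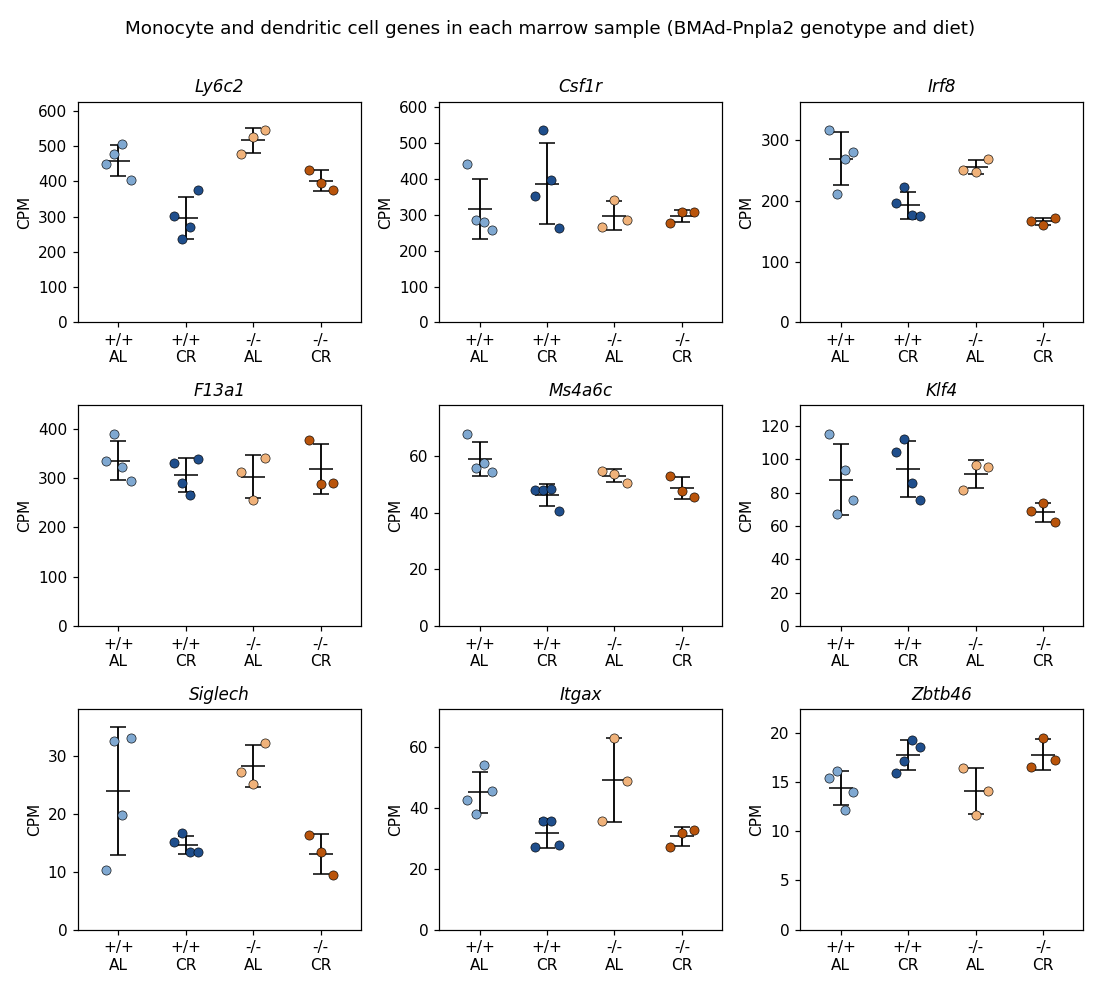
CPM (linear axis from 0) of the 9 monocyte and dendritic cell genes in each of the 14 samples, by BMAd-Pnpla2 genotype and diet; points are samples, long ticks and bars the mean and SD of 4 (+/+) or 3 (-/-) samples. Ly6c2 in +/+ CR samples, 238 to 374 CPM, lies below every +/+ AL sample, 402 to 505 CPM.

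With CR in BMAd-Pnpla2+/+ mice, 4 of the 9 members fell and none rose. They were Ly6c2, Irf8, Ms4a6c and Itgax. Over all genes, 26.0% passed the test in this comparison and 10.9% fell. The median log2 fold change of the members was -0.35, beside 0.00281 for all genes tested. None of the 4 changed by more than 1 on the log2 scale, the study's second criterion, which 9.28% of genes met together with the adjusted p.

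Ly6c2 stood at 449.9, 476, 505 and 402 CPM in the 4 BMAd-Pnpla2+/+ AL samples and at 300.2, 238, 271 and 374 CPM in the 4 CR samples. All CR samples were below all AL samples. The log2 fold change was -0.63 (SE 0.13, 95% interval -0.91 to -0.36, padj = 0.00528). Itgax was at 42.6, 38.2, 54.3 and 45.6 CPM in AL and 27.1, 35.9, 35.7 and 27.96 CPM in CR samples, again without overlap, and the Itgax log2 fold change was -0.51 (SE 0.17, padj = 0.0372). Ms4a6c was at 67.7, 55.7, 57.6 and 54.3 CPM in AL and 48.0, 48.0, 48.1 and 40.4 CPM in CR samples, also without overlap, and changed by -0.35 (SE 0.09, padj = 0.0171). Such a separation was found for 22.8% of all genes in this comparison.

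Irf8, the transcription factor shared by monocyte and dendritic cell development, was at 316, 211, 269.9 and 281 CPM in AL and 197, 223, 177 and 175 CPM in CR samples. The groups overlapped by 1 sample each, AL replicate 2 lying under CR replicate 2, and the log2 fold change was -0.48 (SE 0.11, padj = 0.0106). The part of B cells and of other cell types in the Irf8 values of either genotype was not tested.

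Siglech, the plasmacytoid marker, was at 10.3, 32.7, 19.8 and 33.3 CPM in AL and 15.2, 16.7, 13.4 and 13.5 CPM in CR samples. The AL samples spread over the whole range of the gene, with replicate 1 below every CR sample. Its log2 fold change of -0.71 (SE 0.29) did not pass the test (padj = 0.0886) and became -0.96 with padj = 0.00893 without AL replicate 1. Zbtb46 was at 12.2 to 16.1 CPM in AL and 15.9 to 19.3 CPM in CR samples, with a log2 fold change of 0.30 (SE 0.13, padj = 0.0983). Csf1r was at 441, 287, 279.5 and 258 CPM in AL and 352, 536, 397 and 265 CPM in CR samples. Neither group of Csf1r values was tight, and its log2 fold change was 0.29 (SE 0.20, 95% interval -0.14 to 0.73, padj = 0.29). F13a1 at -0.13 (padj = 0.469) and Klf4 at 0.10 (padj = 0.653) were the other members that did not pass.

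Leaving out samples changed calls of this comparison. With BMAd-Pnpla2+/+ CR replicates 2 and 3 left out together, the samples low in haemoglobin RNA, no member passed the test and 438 of all genes did. The log2 fold changes were then -0.44 for Ly6c2 (padj = 0.0753), -0.54 for Irf8 (padj = 0.055), -0.41 for Ms4a6c (padj = 0.0784), -0.71 for Itgax (padj = 0.074) and -0.04 for Csf1r (padj = 0.942). With single samples left out, Ly6c2, Irf8 and Ms4a6c passed in each of the 14 fits and Itgax in 8, its padj being over 0.05 and at most 0.0817 without BMAd-Pnpla2+/+ AL replicate 3 or 4, BMAd-Pnpla2+/+ CR replicate 1, 3 or 4, or BMAd-Pnpla2-/- AL replicate 3.

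With CR in BMAd-Pnpla2-/- mice, 2 members fell, Irf8 and Itgax, and none rose. Over all genes, 11.6% passed and 5.57% fell, and the member median was -0.36 beside 0.05 for all genes. Neither changed by more than 1 on the log2 scale, as 3.53% of genes did together with the adjusted p. In each CR sample 5 members were lower than in each AL sample, Ly6c2, Irf8, Klf4, Siglech and Itgax, and Zbtb46 was higher in each, while 37.9% of all genes showed such a separation in these groups of 3.

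Irf8 was at 251, 248 and 269 CPM in the 3 AL samples and at 168, 161 and 172 CPM in the 3 CR samples. Both groups were tight and far apart, and the log2 fold change was -0.62 (SE 0.13, 95% interval -0.90 to -0.34, padj = 0.0143). Without CR replicate 3 it was -0.64 with padj = 0.0552, no member passed, and the count over all genes fell to 243. Itgax was at 35.8, 63.2 and 48.8 CPM in AL and 27.3, 31.9 and 32.9 CPM in CR samples, with a log2 fold change of -0.68 (SE 0.19, padj = 0.0368). The AL samples of Itgax differed widely. Its padj was over 0.05 when AL replicate 2 or 3 or CR replicate 1, 2 or 3 was left out, and at most 0.102.

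Siglech was at 27.3, 25.2 and 32.3 CPM in AL and 16.5, 13.4 and 9.41 CPM in CR samples, and its log2 fold change of -1.11 (SE 0.34, 95% interval -1.85 to -0.38) was the largest of any member in either genotype but did not pass (padj = 0.0512). Siglech passed in 5 of 9 alternatives other than leaving out 1 sample, DESeq2 among them (padj = 0.0092), and in 4 of 14 fits without 1 sample. Ly6c2 was at 477, 527 and 544 CPM in AL and 433, 396 and 375 CPM in CR samples, with a log2 fold change of -0.36 (SE 0.15, padj = 0.12). Klf4 was at 81.5, 96.6 and 95.6 CPM in AL and 69.1, 73.7 and 62.4 CPM in CR samples, with a log2 fold change of -0.42 (SE 0.18, padj = 0.153). Both groups of samples separated for these genes, but the change was under the threshold. The log2 fold change was 0.34 for Zbtb46 (padj = 0.146), -0.12 for Ms4a6c (padj = 0.494), 0.07 for F13a1 (padj = 0.785) and -0.00365 for Csf1r (95% interval -0.50 to 0.50, padj = 0.995).

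**Figure D2:**
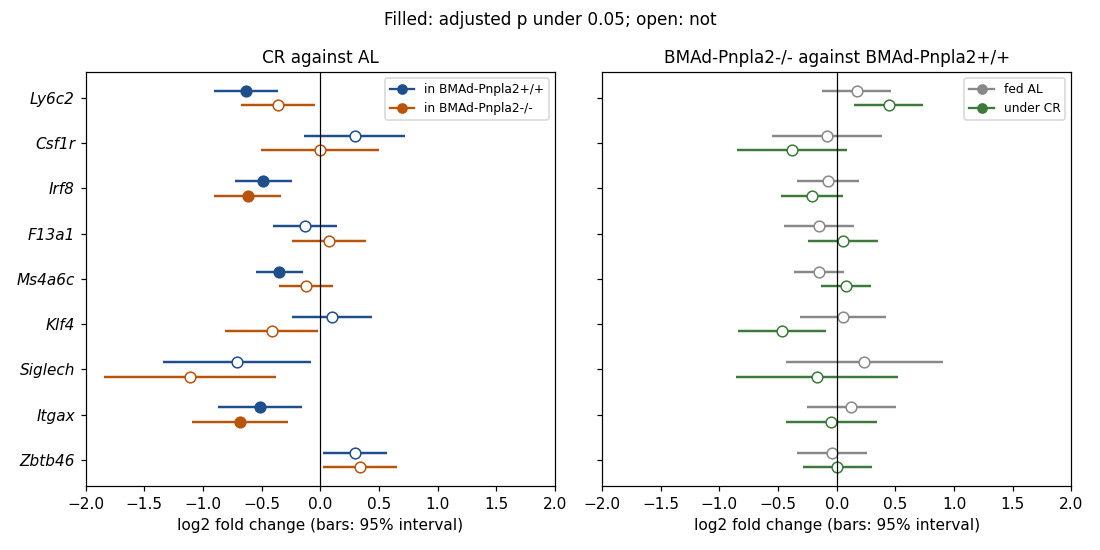
Log2 fold change (points) with its 95% interval (bars) of each member for CR against AL in each genotype (left) and for BMAd-Pnpla2-/- against BMAd-Pnpla2+/+ on each diet (right); filled points passed padj under 0.05 over all genes. Irf8 and Itgax are filled in both genotypes on the left, and no point is filled on the right.

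No member differed between the genotypes fed AL. The test passed for 0.0% of all genes in this comparison with edgeR, for 17 genes with DESeq2, again without a member. At an unadjusted p under 0.05 there were 700 genes, and 0 members. Member log2 fold changes ran from -0.15 for Ms4a6c to 0.24 for Siglech, whose 95% interval was -0.44 to 0.91. The interval of Csf1r was -0.55 to 0.38 and that of Irf8 was -0.34 to 0.19.

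Under CR, no member passed between the genotypes either, where 0.0113% of all genes did. Ly6c2 was the nearest, at 300.2, 238, 271 and 374 CPM in BMAd-Pnpla2+/+ and 433, 396 and 375 CPM in BMAd-Pnpla2-/- samples. Each BMAd-Pnpla2-/- sample was above each BMAd-Pnpla2+/+ sample, the closest pair by a narrow margin, and the log2 fold change was 0.44 (SE 0.14, 95% interval 0.15 to 0.73, unadjusted p = 0.00596, padj = 0.0979). Klf4 was at 104, 112, 86.0 and 75.4 CPM in BMAd-Pnpla2+/+ samples and at 69.1, 73.7 and 62.4 CPM in BMAd-Pnpla2-/- samples, all lower, with a log2 fold change of -0.47 (SE 0.17, padj = 0.142). Irf8 did not overlap either, at -0.21 (padj = 0.322), and 16.7% of all genes separated in this way. With DESeq2, Ly6c2 passed (0.41, padj = 0.0438), as did 1558 of the 13112 genes to which it gave an adjusted p. Without BMAd-Pnpla2+/+ CR replicate 4, both Ly6c2 (0.58, padj = 0.0199) and Klf4 (-0.56, padj = 0.04997) passed, and the count over all genes went from 2 to 2112.

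The difference between the responses to CR, BMAd-Pnpla2-/- minus BMAd-Pnpla2+/+, passed for none of the members. It did so for 0.0% of all genes with edgeR and for 42 with DESeq2, in both cases without a member. With edgeR, 1836 genes reached an unadjusted p under 0.05, and 0 members did. For Klf4 the difference was -0.52 (SE 0.24, 95% interval -1.04 to 0.00536, unadjusted p = 0.0521, padj = 0.485). For Ly6c2, which fell in BMAd-Pnpla2+/+ mice and did not pass in BMAd-Pnpla2-/- mice, it was 0.27 (SE 0.19, 95% interval -0.14 to 0.69, padj = 0.621). For Irf8 it was -0.14 (95% interval -0.51 to 0.24) and for Itgax -0.17 (95% interval -0.72 to 0.37). The interval of Siglech, -1.37 to 0.56, was the widest.

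Ms4a6c is a case in which the count depends on strand. It lies on the forward strand of chromosome 19 (11469366 to 11482192, mm10), with 7 merged exons, and shares exon sequence with BE692007, a noncoding transcript of the reverse strand. A read pair over both cannot be placed without strand and is counted on neither gene. In the 11 samples with strand information, the unstranded count of Ms4a6c was 49.7 to 63.3% of its reverse-strand count. BMAd-Pnpla2+/+ AL replicate 1, for example, had 1402 reads without strand and 2388 on the reverse strand. In the 3 BMAd-Pnpla2-/- CR samples the reverse-strand count was 1130, 965 and 992 and the unstranded count 1006, 907 and 928.

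**Figure D3:**
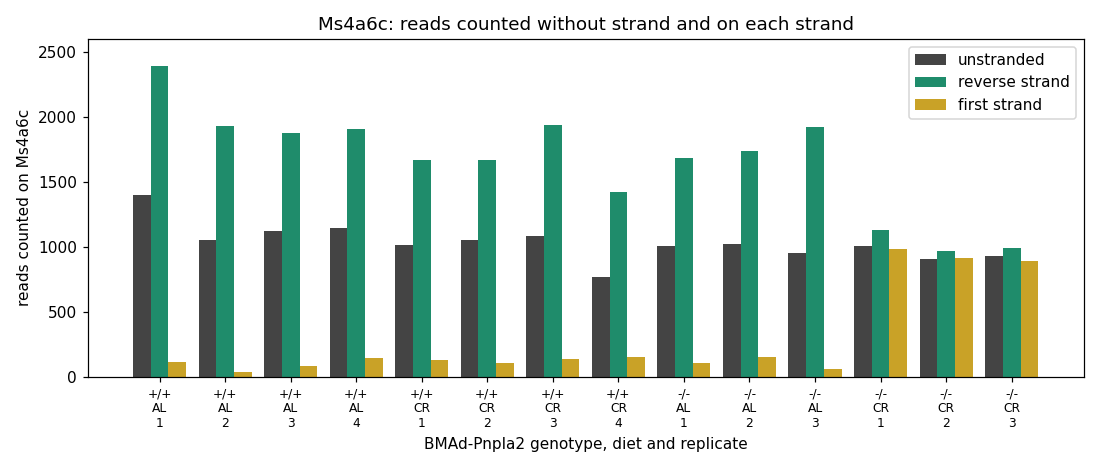
Reads counted on Ms4a6c (linear axis from 0) in each of the 14 samples without strand, on the reverse strand and on the first strand. The reverse-strand bar stands well above the unstranded bar in 11 samples, and the 3 bars are alike in the 3 BMAd-Pnpla2-/- CR samples, where the first strand holds 892 to 981 reads.

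The deposited matrix holds reverse-strand counts in these 11 samples and unstranded counts in the 3 BMAd-Pnpla2-/- CR samples. With that matrix the log2 fold change of Ms4a6c between the genotypes under CR was -0.68 with padj = 2.76e-04, whereas with unstranded counts in all samples it was 0.08 with padj = 0.666. For CR against AL in BMAd-Pnpla2-/- mice the values were -0.97 with padj = 1.67e-05 and -0.12 with padj = 0.494. In BMAd-Pnpla2+/+ mice, where no sample of the other library type enters, the fall of Ms4a6c was -0.39 with the matrix and -0.36 from the reverse-strand counts of the 11 samples, beside -0.35 here. For the other 8 members, the ratio of the unstranded to the reverse-strand count was 0.966 to 1.03 in the 11 samples.

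Of the relatives of Ly6c2 and Ms4a6c, Ly6c1, Ms4a6b and Ms4a6d rose or did not pass. Others fell with CR in BMAd-Pnpla2+/+ mice, Ms4a4c (-0.78, padj = 0.0119) and the neutrophil marker Ly6g (-1.23, padj = 0.00576). Neither of these passed in BMAd-Pnpla2-/- mice (padj = 0.45 and 0.05003). Ly6c1, at 9.73 to 11.6 CPM in BMAd-Pnpla2+/+ AL and 12.4 to 25.8 CPM in BMAd-Pnpla2+/+ CR samples, rose by a log2 fold change of 0.77 (SE 0.26, padj = 0.0458), the opposite direction to Ly6c2. Its value was 0.80 (padj = 0.101) in BMAd-Pnpla2-/- mice. Ms4a6b, a neighbour of Ms4a6c on chromosome 19 that T cells also express, was at 34.4 to 46.7 CPM in AL and 47.0 to 53.3 CPM in CR samples of BMAd-Pnpla2+/+ mice and rose by 0.32 (SE 0.09, padj = 0.0257). Ms4a6b was at 40.0 to 46.2 CPM in AL and 51.9 to 56.3 CPM in CR samples of BMAd-Pnpla2-/- mice, a log2 fold change of 0.34 (padj = 0.0597). Ms4a6d, another gene of that group, had -0.13 (padj = 0.61) and 0.16 (padj = 0.651).

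Other genes of the monocyte and dendritic cell pathway were described by 8 lists, of which 1 gene, Csf2, was too low to test. Of 11 classical monocyte genes, 3 fell and 1 rose with CR in BMAd-Pnpla2+/+ mice, with a median log2 fold change of -0.21. Ccr2, the chemokine receptor with which monocytes leave the marrow, fell from 168 ± 34.8 to 91.2 ± 12.5 CPM (SD, n = 4), a log2 fold change of -0.88 (SE 0.17, padj = 0.00478). Ms4a4c (-0.78, padj = 0.0119) and Lyz2, the gene of lysozyme, which neutrophils also make (-0.56, padj = 0.0154), fell too. Ms4a6b was the one that rose. Among these 11, only Vcan, the gene of the matrix proteoglycan versican, passed in BMAd-Pnpla2-/- mice, rising from 34.4 ± 9.30 to 80.8 ± 31.1 CPM (SD, n = 3; 1.23, SE 0.30, padj = 0.0225). Stromal cells make versican too.

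Of 9 genes of non-classical monocytes, the patrolling kind, 1 fell in BMAd-Pnpla2+/+ mice, the integrin gene Itgal (-0.37, padj = 0.0111), and 2 fell in BMAd-Pnpla2-/- mice. There Cx3cr1, the fractalkine receptor, went from 51.2 ± 4.29 to 27.7 ± 4.76 CPM (SD, n = 3; -0.88, SE 0.25, padj = 0.0379), and Itgal changed by -0.52 (padj = 0.011).

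Genes of plasmacytoid dendritic cells had the most calls among the dendritic cell lists. Of 11, 5 fell and 1, Tlr7 (0.54, padj = 0.0251), rose with CR in BMAd-Pnpla2+/+ mice, with a median of -0.28, and 3 fell and none rose in BMAd-Pnpla2-/- mice, with a median of -0.50. Irf7, the interferon regulatory factor that these cells hold ready for antiviral responses, fell in both genotypes, from 95.7 ± 48.5 to 35.9 ± 2.99 CPM (SD, n = 4; -1.42, SE 0.27, padj = 0.00478) and from 85.9 ± 12.5 to 27.3 ± 8.44 CPM (SD, n = 3; -1.66, SE 0.32, padj = 0.0109). Cox6a2 (-1.28, padj = 0.00146) and Klk1 (-1.62, padj = 0.0456) fell in BMAd-Pnpla2+/+ mice, both from levels of at most 7.06 CPM on average. Upb1 fell in both genotypes (-1.01, padj = 0.031, and -1.28, padj = 0.0385), as did Bst2, the restriction factor tetherin (-0.71, padj = 0.0122, and -0.93, padj = 0.0147). Upb1 was low too, at 3.22 ± 0.43 CPM in AL and 1.33 ± 0.59 CPM in CR samples of BMAd-Pnpla2-/- mice. Irf7 and Bst2 are induced by interferon in many cell types.

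Of 15 genes of conventional dendritic cells, 3 fell and 2 rose with CR in BMAd-Pnpla2+/+ mice and 1 fell in BMAd-Pnpla2-/- mice. Dpp4, the peptidase CD26, fell in both (-0.92, padj = 0.00515, and -0.90, padj = 0.0198). Clec9a, a receptor of cross-presenting dendritic cells (-0.80, padj = 0.0304), and Wdfy4, which these cells need for cross-presentation (-0.53, padj = 0.0276), fell in BMAd-Pnpla2+/+ mice, whereas the lectin gene Clec10a (0.70, padj = 0.0317) and the cystatin gene Cst3 (0.50, padj = 0.0296) rose. The Clec9a level was low, at 6.86 ± 2.33 CPM in AL and 3.95 ± 1.04 CPM in CR samples of BMAd-Pnpla2+/+ mice. The list median was 0.05 in BMAd-Pnpla2+/+ mice.

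Among 11 lineage transcription factors, 3 fell and 1 rose in each genotype. Spib, which plasmacytoid dendritic cells and B cells share, fell in BMAd-Pnpla2+/+ mice (-1.84, SE 0.41, padj = 0.00855) from a widely spread AL level of 169.6 ± 109 CPM (SD, n = 4), and in BMAd-Pnpla2-/- mice (-2.02, SE 0.47, padj = 0.0201). Spi1, the gene of PU.1, went from 467 ± 68.6 to 349 ± 57.8 CPM (-0.42, SE 0.14, padj = 0.0376) and from 467 ± 13.1 to 277 ± 37.5 CPM (-0.75, SE 0.16, padj = 0.014). Bcl11a, which B cells also express, fell in BMAd-Pnpla2+/+ mice (-0.55, padj = 0.0191) and Irf5 in BMAd-Pnpla2-/- mice (-0.47, padj = 0.0327). Id2, an inhibitor of E proteins in dendritic and innate lymphoid cells, rose in both (0.35, padj = 0.0422, and 0.57, padj = 0.0199).

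**Figure D4:**
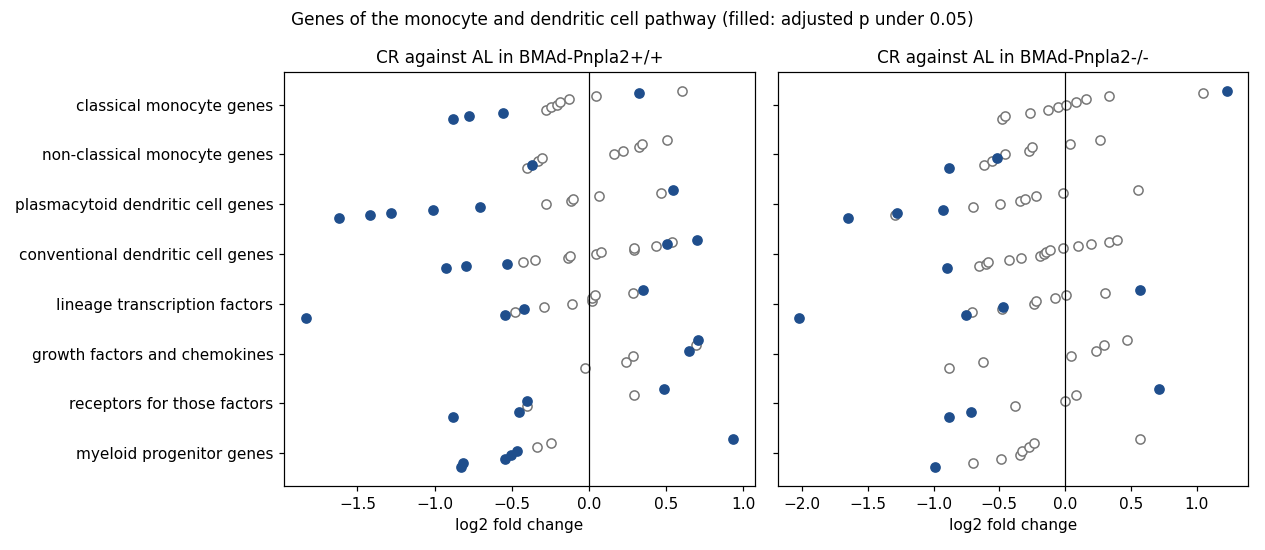
Log2 fold change for CR against AL of each tested gene in 8 lists of the monocyte and dendritic cell pathway, in BMAd-Pnpla2+/+ (left) and BMAd-Pnpla2-/- mice (right); each point is a gene, filled where padj was under 0.05. The lowest filled point in both panels is Spib, at -1.84 and -2.02.

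Of 6 growth factors and chemokines tested, 2 rose and none fell with CR in BMAd-Pnpla2+/+ mice, Csf1, a ligand of Csf1r, from 87.6 ± 9.86 to 142.7 ± 36.1 CPM (SD, n = 4; 0.70, SE 0.17, padj = 0.0116) and Cx3cl1, the ligand of Cx3cr1 (0.65, padj = 0.0494). None of the 6 passed in BMAd-Pnpla2-/- mice. Of the 6 receptors, 3 fell and 1 rose in BMAd-Pnpla2+/+ mice, and 2 fell and 1 rose in BMAd-Pnpla2-/- mice. Besides Ccr2 and Cx3cr1 above, Csf2ra, a subunit of the GM-CSF receptor, fell in both (-0.45, padj = 0.0193, and -0.72, padj = 0.0116), and its partner Csf2rb fell in BMAd-Pnpla2+/+ mice (-0.40, padj = 0.0211). Flt3, the receptor on dendritic cell and lymphoid progenitors, rose in both (0.49, padj = 0.00973, and 0.71, padj = 0.00951). Csf1r itself passed in neither genotype. Of 8 myeloid progenitor genes, which mostly encode granule proteins and granulocyte factors, 5 fell and 1 rose in BMAd-Pnpla2+/+ mice with a median of -0.49. Prtn3, the gene of proteinase 3 (-0.83, padj = 0.0112), Mpo (-0.51, padj = 0.0241), Ctsg (-0.47, padj = 0.0368) and Cd34 (-0.55, padj = 0.0062) fell there. Cebpe, a factor of granulocyte maturation, fell in both genotypes (-0.82, padj = 0.00887, and -0.99, padj = 0.0148) and was the only one of the 8 that passed in BMAd-Pnpla2-/- mice. Kit, the receptor of stem and mast cells, rose in BMAd-Pnpla2+/+ mice (0.93, padj = 0.0075).

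Over the 75 genes tested in the 8 lists, 31 passed with CR in BMAd-Pnpla2+/+ mice, and 14 did so in the other genotype, where 26.0% and 11.6% of all genes passed. Without BMAd-Pnpla2+/+ CR replicates 2 and 3, 3 passed in BMAd-Pnpla2+/+ mice, Ccr2, Cox6a2 and Bst2, all lower, and 22 in BMAd-Pnpla2-/- mice. Of the 17939 genes tested in that fit, 438 passed in BMAd-Pnpla2+/+ mice, and 3014 did so in the other genotype. With edgeR none of the 75 passed between the genotypes fed AL, between the genotypes under CR, or in the difference between the responses, where 2, 16 and 4 had an unadjusted p under 0.05. With DESeq2 these counts were 0, 2 and 0, the 2 under CR being Ccr2, which was higher, and Ace, which was lower, in BMAd-Pnpla2-/- mice.

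Markers of other cells of the marrow plug were followed in the same comparisons. The part of those cells in the changes of the monocyte and dendritic cell genes was not tested. Among all genes tested, 26.0% passed with CR in the control genotype, and 11.6% did so in the other. Some of the marker counts below lie near these shares, and whether any list exceeded them was not tested. In BMAd-Pnpla2+/+ mice, 6 of 8 neutrophil markers fell with CR and none rose, their summed level being 23270 to 31770 CPM in AL and 11100 to 21670 CPM in CR samples. The most abundant of the 8, the granule gene Ngp, did not pass (-0.41, padj = 0.199). All 8 adipocyte markers rose, from a summed 682 to 1727 CPM in AL to 1891 to 4664 CPM in CR samples. Of the 9 macrophage markers 4 rose, from a summed 1360 to 1793 CPM to 1758 to 2493 CPM. Vcam1 was the highest and made up 392.8 to 483 CPM of that sum in AL and 602 to 911 CPM in CR samples. Adgre1, C1qa, C1qb, C1qc and Siglec1 did not pass. Of other lists, 5 of 7 osteoclast, 5 of 6 endothelial, 3 of 6 osteoblast and 3 of 8 T or NK cell markers rose. Ly6c1 is one of those 5 endothelial markers. Of the B cell markers 3 of 9 and 3 of 5 eosinophil, basophil or mast cell markers fell, and none of 6 erythroid markers passed. The 3 B cell markers were Rag1 (-6.83, padj = 8.965e-05), Igll1 (-6.45, padj = 1.81e-05) and Vpreb1 (-5.51, padj = 1.32e-05). The same 3 changed in BMAd-Pnpla2-/- mice by -5.915 (padj = 0.0018), -5.50 (padj = 2.79e-04) and -5.46 (padj = 1.48e-04). The remaining B cell markers passed in neither genotype. In BMAd-Pnpla2-/- mice, 7 of 8 adipocyte markers rose, 3 of 9 B cell markers and 3 of 5 eosinophil, basophil or mast cell markers fell, 2 of 8 T or NK cell markers and 1 of 9 macrophage markers rose, and no neutrophil, osteoclast, endothelial, osteoblast or erythroid marker passed. No marker of any of the 10 lists was at 0 in every sample. The most abundant gene of each other list over all samples was Cfd at 78.6 to 2019 CPM (adipocyte), Hba-a1 at 6067 to 30720 (erythroid), Cd79a at 69.3 to 368.9 (B cell), Cd4 at 53.9 to 120.1 (T or NK cell), Prg2 at 86.2 to 653 (eosinophil), Mmp9 at 1157 to 2394 (osteoclast), Pecam1 at 103 to 171 (endothelial) and Col1a1 at 136 to 3024 (osteoblast).

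The summed level of the B cell markers was 1276, 337, 809 and 1478 CPM in the 4 BMAd-Pnpla2+/+ AL samples, in which Siglech was at 10.3, 32.7, 19.8 and 33.3 CPM. Replicate 4 held the highest value of both, the lowest B cell sum was in replicate 2 and the lowest Siglech level in replicate 1, and the part of B cells in the Siglech values was not tested. BMAd-Pnpla2+/+ CR replicates 2 and 3 had the highest macrophage sums of their group, 2354 and 2493 CPM, the lowest neutrophil sums, 11100 and 12320 CPM, and the highest Csf1r and lowest Ly6c2 levels.

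Among the members themselves, the pattern of log2 CPM over the 14 samples was most alike for Irf8 and Itgax (Pearson r = 0.75) and for Irf8 and Ms4a6c (r = 0.74), and most opposed for Itgax and Zbtb46 (r = -0.83). These values share the contrast of diet. With the mean of each group taken out, the highest was r = 0.78 for Irf8 and Klf4, followed by 0.75 for Csf1r and Klf4 and 0.70 for Ms4a6c and Klf4, while Ly6c2 and Csf1r stood at -0.58 and F13a1 and Itgax at -0.72. All 14 points share the scaling of their library, and the correlations are a description.

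Of all genes tested, those most alike to Ly6c2 over the 14 samples were Ankrd22 (r = 0.97), Milr1 (0.95) and Ly6a2 (0.94), the last a member of the Ly6 family. Csf1r was nearest to Sec24d, Tns3 and Col18a1 (0.93 to 0.94), of which the last encodes a basement membrane collagen. Irf8 was nearest to Nfkbie (0.97), an inhibitor of NF-κB, Ppfia4 and Gfra1 (both 0.96). Klf4 was nearest to Vim (0.94), the gene of vimentin, Crlf2 (0.93) and Exoc7 (0.90), and Siglech to Klk1 (0.91), one of the plasmacytoid dendritic cell genes above, Csrp1 and Cd300c (both 0.86). Itgax was nearest to Armc2 (0.94), Atf3 (0.90) and Grb7 (0.87), Zbtb46 to Gm44706 (0.90), Strip2 (0.89) and Dok6 (0.88), Ms4a6c to Rem2, Sdf2l1 (both 0.89) and Gpr35 (0.87), and F13a1 to Slk (0.89), Trappc10 and Usp47 (both 0.86).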

How the data were processed

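The authors aligned strand-specific paired-end reads to mm10 with STAR and deposited, per sample, raw read counts of each gene (unstranded, first strand, reverse strand), along with a matrix of 23441 genes. The other tools their notes name are FastQC 0.11.9 and DESeq2. STAR's multimapping and ambiguous pairs are in no gene's count, and 21.1 to 25.6% of pairs were on no single gene. Unstranded counts of all 14 samples were used here.

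Counts were scaled by TMM, filtered with filterByExpr (minimum count 10) and tested two-sided with edgeR 4.0.16 (robust glmQLFit, 1 model of 4 groups, Benjamini-Hochberg within each comparison) in R 4.3.3 with limma 3.58.1 and statmod 1.5.0. SE is the log2 fold change over the square root of F. Log2 CPM used a prior count of 2. CPM per kilobase divides by merged exon length of GENCODE M21, whose identifiers matched 55141 of 55401. The criteria, padj under 0.05, and the study's, with an absolute log2 fold change over 1, were counted. DESeq2 1.42.0, RLE, total counts, the deposited matrix, reverse-strand counts, other filters, only the groups compared, a replicate block and leaving out samples were alternatives. Unstranded counts of the 11 samples other than BMAd-Pnpla2-/- CR, and leaving out BMAd-Pnpla2+/+ CR replicates 2 and 3 together, were chosen after seeing the data. The tests were checked on simulated counts (seed 11, 200 changed genes). Python 3.11.15, pandas 2.3.3 and matplotlib 3.10.9 made summaries and figures.

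The members and gene lists were chosen with earlier results of these data known. Named by rule were the 9 members, Pnpla2, Ly6c1, Ms4a6b and Ms4a6d; up to 3 genes per pathway list with the largest change past padj 0.05 with CR in either genotype; and the 3 genes most correlated with each member. The gene of highest mean CPM in each marker list was named too. BE692007, Ace, Tlr7, Wdfy4, Cst3, Irf5, Csf2rb, Mpo, Ctsg, Cd34 and Ly6g, and Bst2, Upb1 and Id2 in the genotype where the rule did not take them, were named after their values were seen. So were the B cell markers Rag1, Igll1 and Vpreb1 and the macrophage markers Adgre1, C1qa, C1qb, C1qc and Siglec1.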

Additional observations from a re-analysis of the deposited data

Results flagged for a closer look

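Each member was checked in both groups of 4 samples for a sample far from the others, 18 checks in all, of which chance flags about 1 in 20. Csf1r in BMAd-Pnpla2+/+ AL replicate 1, at 441 CPM, lay apart from the other 3 samples at 258 to 287 CPM, its gap to the nearest being 0.842 of the group's range. Ms4a6c in BMAd-Pnpla2+/+ CR replicate 4, at 40.4 CPM, lay apart from the other 3 at 48.0 to 48.1 CPM, with a gap of 0.989 of the range. The groups of 3 were not checked. No member's response to CR differed between the genotypes by the test of the difference.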

How the results depend on the processing

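With CR in BMAd-Pnpla2+/+ mice, Ly6c2 and Irf8 each passed in 10 of 11 alternatives other than leaving out 1 sample, Ms4a6c in 9 and Itgax in 8. The count of members past padj 0.05 in this comparison was 4 and stayed within 3 to 5 when 1 sample was left out. It was 3 with reverse-strand counts of the 11 samples, with total counts and with only the groups compared. The count was 0 without BMAd-Pnpla2+/+ CR replicates 2 and 3 and 0 with the fold-change criterion. In BMAd-Pnpla2-/- mice it was 2, 0 to 3 with 1 sample left out, 4 with the deposited matrix, 1 with total counts, which shifted the median of all genes from 0.05 to 0.12, 5 with only the groups compared and 0 with the fold-change criterion. Between the genotypes under CR it was 0, 0 to 2 with 1 sample left out, 2 with the deposited matrix and 1 with DESeq2, and in the difference between the responses it was 0, and 1 with the matrix. Fed AL it was 0 in every fit run. The value of Ms4a6c changed sign with the matrix, to -0.68 between the genotypes under CR and -0.58 in the difference, the matrix mixing 2 kinds of count. Over all genes, the 4602 calls with CR in BMAd-Pnpla2+/+ mice became 2742 with only the groups compared and 438 without CR replicates 2 and 3, the 2052 in BMAd-Pnpla2-/- mice became 3898 with the matrix, and the 2 between the genotypes under CR became 2451 with the matrix, 1558 with DESeq2, 111 without the filter on low counts and 8 with total counts. With 1 sample left out, these 3 counts ran from 2228 to 6029, 243 to 2435 and 0 to 2112, and the 0 in the difference became 678 with the matrix. Over all members and comparisons, alternatives other than leaving out 1 sample kept 398 of 432 values in direction and call, with 8 calls lost, 11 gained, and 13 values changing sign without a call, and leave-one-out fits kept 582 of 630. Reverse-strand counts of the 11 samples give no value for comparisons with BMAd-Pnpla2-/- CR. Where no value above shows a cause, the cause was not tested. Counts as low as 192 on Siglech limit its precision.

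With the replicate number as a block, the count of members passing with CR was 4 in BMAd-Pnpla2+/+ mice, 2 in BMAd-Pnpla2-/- mice, and 0 in the other 3 comparisons, and no call changed. The correlation of deviations from the group means was over 0.1 in 7 of 19 same-number pairs, from -0.38 to 0.33. In the 54 other pairs it ran from -0.44 to 0.36. These ranges show no pairing by number, but with groups of 3 or 4 samples the check is weak.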
